A study of Mus musculus with 8 samples.

Results

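Lilr4b and Lilrb4a are a pair of neighbouring mouse genes for leukocyte immunoglobulin-like receptors, and acetylated histone H3 (H3ac) was described across their locus, chromosome 10 from 51350000 to 51380000 on GRCm39. All peaks that 4 library peak lists hold in this window were taken, which gave 19 peaks of 193863 on chromosomes in all. The locus was chosen by its covered width in these same libraries, which was larger with CuNZ@Gel, so every value from the comparison of the groups is a description, and none was tested.

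The study profiled H3ac by chromatin immunoprecipitation and sequencing in RAW 264.7, an established mouse macrophage-like cell line. Each of 2 treatment labels, Gel and CuNZ@Gel, had 2 immunoprecipitated libraries. The treatment protocol, shared by all samples, speaks of 48 h with CuNZ@Gel extracts, so what the Gel cells received is taken from their treatment label. All cells are of this 1 line, no untreated group is among the samples, and the labels do not state whether the libraries within a group are from different cultures. The spread between them may therefore be technical. The 4 input libraries were not analysed here. The macrophage identity of the cells was not checked against marker genes, because no annotation of the files' build was used here.

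Acetylation of histone H3 marks active promoters and enhancers, and broad acetylated stretches often begin at a gene's start and run into its body. Lilrb4a, also called Gp49b, encodes an inhibitory receptor of macrophages, mast cells and other leukocytes. Its cytoplasmic tail carries tyrosine-based inhibitory motifs that recruit phosphatases and dampen activating signals. Lilr4b, also called Gp49a, encodes a closely related receptor that lacks those inhibitory motifs. In the RefSeq gene table, which is of the earlier build GRCm38.p6, the genes are adjacent, with Lilr4b first and Lilrb4a next. The pseudogene Gm5040 precedes them and the long non-coding RNA Gm40645 follows. The peak lists name no genes and coordinates were not converted between builds, so the 2 acetylated domains found below are named by their order along the chromosome and are not assigned to a gene. Because the 2 genes are similar in sequence, some reads may have matched both, and how the authors treated such reads is not given in the sources used here.

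RefSeq gives a promoter for Lilr4b, on the forward strand of GRCm38.p6, and no entry for Lilrb4a was matched. The 250 bases before the annotated start are shown as the regulatory stretch at the start of 1 of the 2 genes, with GGAA on either strand in capitals, the core bound by ETS factors such as PU.1.
Lilr4b promoter: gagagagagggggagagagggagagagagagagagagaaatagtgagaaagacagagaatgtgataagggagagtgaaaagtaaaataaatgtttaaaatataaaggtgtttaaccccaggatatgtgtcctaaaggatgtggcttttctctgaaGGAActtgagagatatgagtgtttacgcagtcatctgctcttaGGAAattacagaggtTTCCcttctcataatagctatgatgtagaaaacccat

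The promoter is poor in G and C and begins with a run of GA and GG pairs 38 bases long. Its GC content is 39.2%, against a median of 52.4% over the 32817 promoter windows of the table. It holds 1 CG dinucleotide, where the median promoter has 6. GGAA occurs 3 times when both strands are searched, with 2 matches on the gene's strand, 95 and 52 bases before the start, and 1 on the opposite strand, 37 bases before it. This count is ordinary, since 93.4% of the promoters hold GGAA and the median number is 3. TATAAA occurs once, 151 bases before the start, and 12.4% of the promoters hold it on either strand. The longer motif GAGGAA and the AP-1 motif TGANTCA have no match in these letters on either strand, while 23.3% and 6.75% of the promoters hold them. The GAGGAA motif contains GGAA, so its matches are also counted under the shorter one. These matches describe letters only. Whether this promoter lies under a peak was not determined, because the table and the peaks are of different builds.

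H3ac at the locus lay in 2 broad domains, and peaks covered more of the window with CuNZ@Gel than with Gel in every library. The upstream domain, at the lower coordinates, spanned 51355962 to 51360983 once the 4 lists were merged, and the downstream domain spanned 51366422 to 51371330. A further region, from 51365925 to 51366255, was a single peak of 331 bp in CuNZ@Gel replicate 1. No library had a peak between the upstream domain and that small region, a stretch of 4941 bp. No library had a peak for 22891 bp to the left of the locus or for 29631 bp to its right. How usual such stretches are was not examined.

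**Figure D1:**
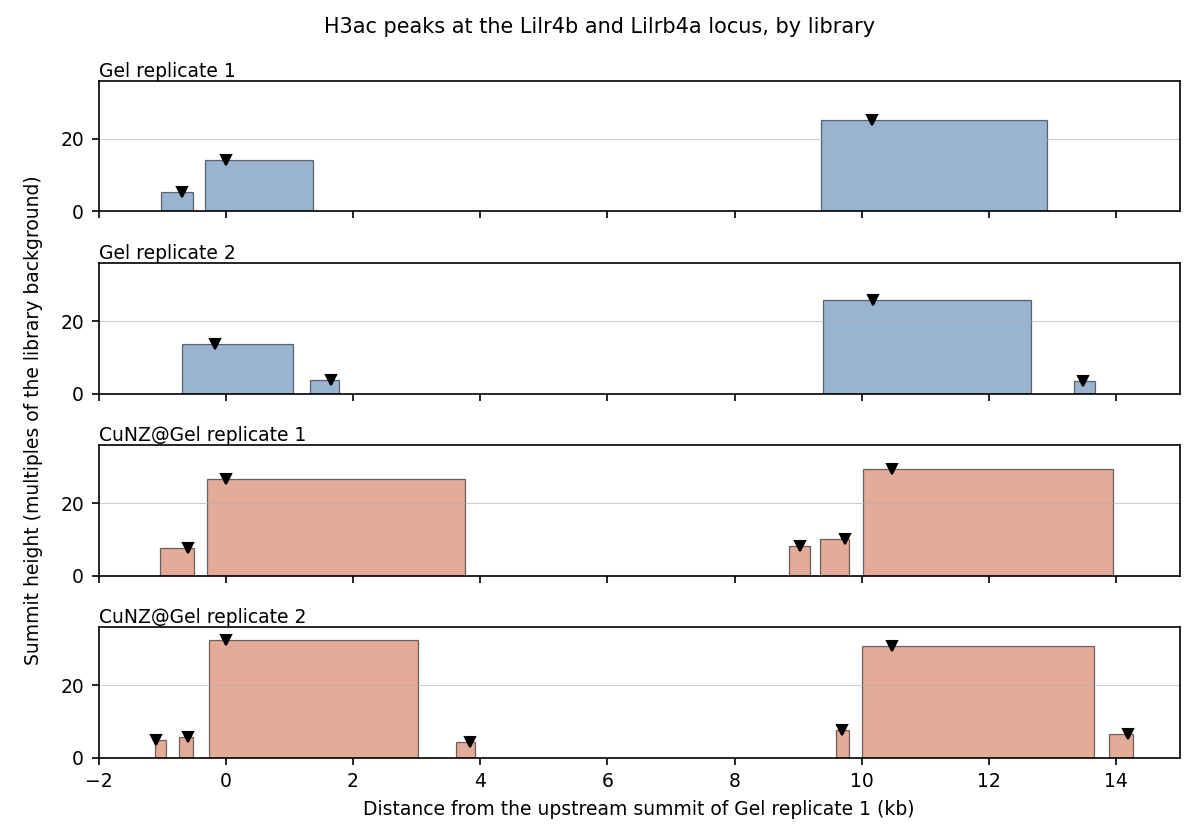
Peaks of the 4 libraries at the locus. Each box is 1 called peak, with its extent on the horizontal axis in kb from the upstream summit of Gel replicate 1 and its summit height, in multiples of the library background, as the height of the box; triangles mark summits, and a box does not show the signal between its ends. Both domains reach further right in the CuNZ@Gel libraries, and the upstream box is about as tall as the downstream box there but lower in the Gel libraries.

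Covered width means the bases under peaks. In the window it was 5746 bp in Gel replicate 1 and 5837 bp in Gel replicate 2. It was 9312 bp in CuNZ@Gel replicate 1 and 8193 bp in CuNZ@Gel replicate 2. The groups did not overlap, the means being 5792 ± 64.3 bp for Gel and 8753 ± 791 bp for CuNZ@Gel (SD, n = 2 each), a ratio of 1.51. The difference of 2961 bp was larger than the spread between replicates of either group. Gel replicates 1 and 2 had 3 and 4 peaks here, and CuNZ@Gel replicates had 5 and 7, so the group means differed by 2.5 peaks, and by 1.5 without CuNZ@Gel replicate 2.

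Merging the 2 libraries of a group gave 6681 bp covered with Gel and 9864 bp with CuNZ@Gel. All 4 libraries covered 4418 bp together. A further 1882 bp were covered in both CuNZ@Gel libraries and in neither Gel library, of which 1395 bp lay in the upstream domain and 487 bp on the downstream side. The opposite pattern held for 225 bp. The longest of the stretches found with CuNZ@Gel only ran from 51358859 to 51360097, 1239 bp at the right side of the upstream domain, and the next, of 424 bp, ran from 51369979 to 51370402 in the downstream domain. The additional bases thus lay mostly on the right-hand shoulders, not between the domains. The Jaccard index, the shared share of the bases covered in either of 2 libraries, was 0.734 within Gel and 0.775 within CuNZ@Gel, and 0.557 to 0.583 for the pairs across groups. Across groups the index is limited by the unequal covered widths, for which the locus was chosen.

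The upstream domain differed most between the groups. Peaks covered 2205 bp of it in Gel replicate 1 and 2226 bp in Gel replicate 2. They covered 4584 bp in CuNZ@Gel replicate 1 and 3964 bp in CuNZ@Gel replicate 2. The mean with CuNZ@Gel was 1.93 times that with Gel, a difference of 2058 bp against replicate SDs of 14.8 bp with Gel and 438 bp with CuNZ@Gel. The left edge was similar in all libraries, with first bases from 51355962 to 51356377. The right edge was not, with last bases at 51358442 and 51358858 in Gel and at 51360830 and 51360983 in CuNZ@Gel. The difference between the groups thus lay at the right side of the domain.

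The downstream domain was already broad with Gel and was moderately broader with CuNZ@Gel. Its covered width was 3541 bp in Gel replicate 1, 3611 bp in Gel replicate 2, 4397 bp in CuNZ@Gel replicate 1 and 4229 bp in CuNZ@Gel replicate 2. The means were 3576 ± 49.5 bp and 4313 ± 119 bp (SD, n = 2 each), 1.21 times as wide. The right edge lay at 51369978 and 51370737 in Gel and at 51371028 and 51371330 in CuNZ@Gel. Without CuNZ@Gel replicate 1 this difference was 288 bp in place of 737 bp. The last peak of CuNZ@Gel replicate 2, 365 bp wide, was then no longer joined to the domain. With that peak, the 4229 bp of CuNZ@Gel replicate 2 exceeded both Gel widths.

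Such a gain was uncommon in these libraries, but the locus was chosen for it. Of the 21909 regions with a peak in all 4 libraries, 1.26% were wider in each CuNZ@Gel library than in each Gel library, and both domains are among them. The median difference over these regions was -298 bp, CuNZ@Gel minus Gel. By size of the gain in mean width, the upstream domain ranked 2 and the downstream domain 10 of these 21909 regions. Over windows of 30 kb tiled along the chromosomes and covered in all 4 libraries, 0.467% had a larger covered width with CuNZ@Gel in every library, and 1 of 14760 had a larger difference than the locus. These ranks describe the choice and support nothing beyond it.

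**Figure D2:**
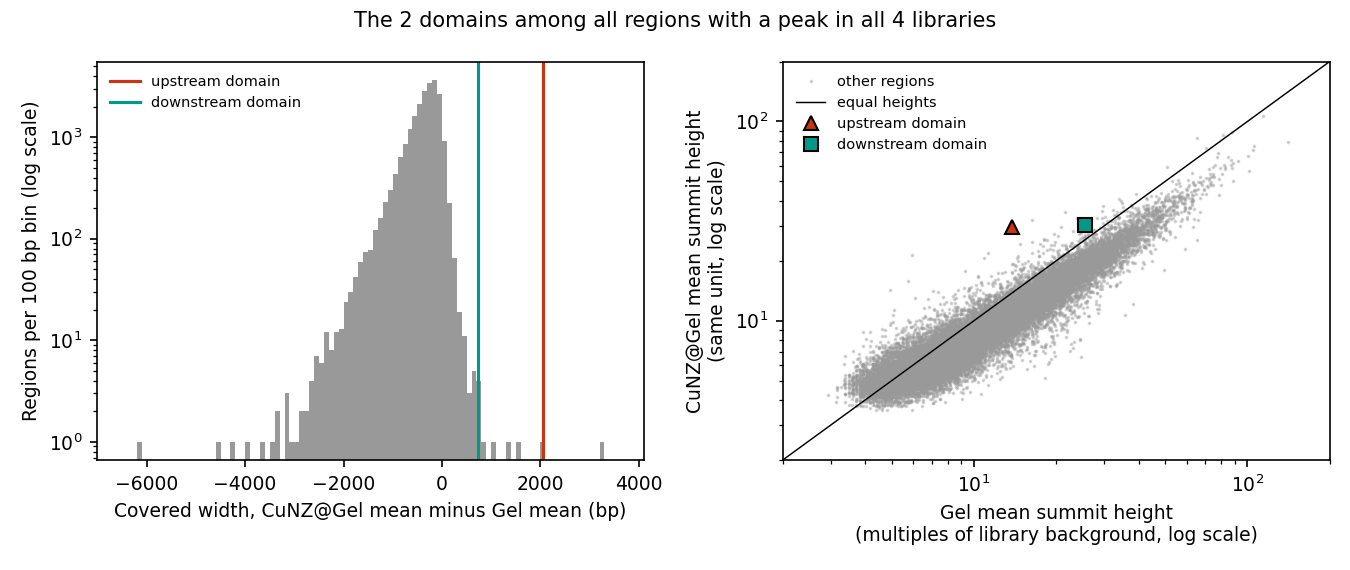
The 2 domains among the 21909 regions with a peak in all 4 libraries. Left, a histogram of the difference in mean covered width in bp, with regions per bin on a log scale and the domains as vertical lines at 2058 and 737 bp; right, mean summit heights of the groups in multiples of library background on log scales, 1 dot per region, with 1 region outside the axes. The upstream domain lies far above the line of equal heights and the downstream domain slightly above it, while most regions lie below it.

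The neighbouring regions of the same chromosome did not share the gain. The nearest region on the left with peaks in all 4 libraries, from 51331850 to 51333070, covered 1221 and 965 bp with Gel and 671 and 763 bp with CuNZ@Gel. The next one, from 51327499 to 51330177, covered 2637 and 2325 bp with Gel and 2379 and 2283 bp with CuNZ@Gel, so its groups overlapped. On the right, the region from 51400962 to 51405882 covered 4580 and 4892 bp with Gel and 4437 and 3924 bp with CuNZ@Gel. Each of the 3 had a smaller mean with CuNZ@Gel, opposite to both domains of the locus. This was the common direction. Of the 21909 regions with a peak in all 4 libraries, 74.5% were narrower in each CuNZ@Gel library than in each Gel library.

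**Figure D3:**
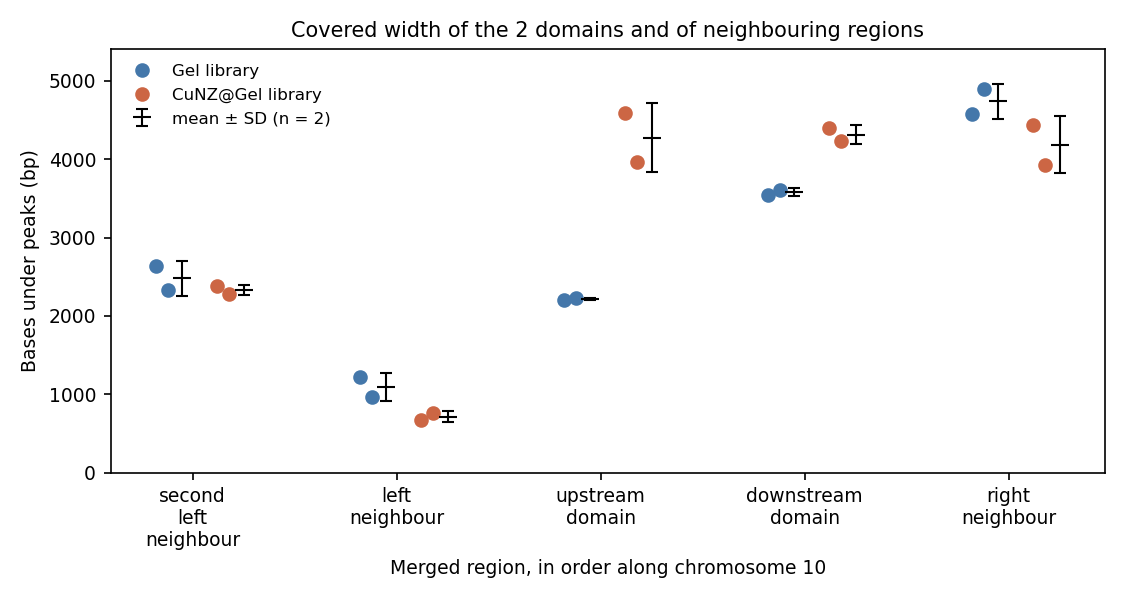
Bases under peaks in bp for the 2 domains and 3 neighbouring regions, in order along chromosome 10. Points are libraries, and black marks are group means with SD (n = 2). The CuNZ@Gel points lie above the Gel points in the upstream domain, 4584 and 3964 against 2205 and 2226 bp, and in the downstream domain, but not in the neighbours.

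Summit heights separated the domains more clearly than widths did. The fragments stacked at a peak's summit were solved from the authors' fold enrichment and −log10 p, and the height is that number divided by the commonest background of the library. That background, a stand-in for depth, was lower in the CuNZ@Gel libraries, at 3.45 and 2.46 fragments in replicates 1 and 2, than in the Gel libraries, at 4.62 and 4.28. In the upstream domain the highest summit held 65 fragments in Gel replicate 1 and 58 in Gel replicate 2, and 92 and 80 with CuNZ@Gel in the same order. The count was thus higher with CuNZ@Gel before any scaling, although those libraries had the lower background. Only 0.0913% of the 21909 regions, 20 in number, had more summit fragments in each CuNZ@Gel library than in each Gel library. As heights these values were 14.1 and 13.6 times background in Gel and 26.7 and 32.5 in CuNZ@Gel. The ratio of the means was 2.14, or 1.10 on the log2 scale, where the median over all such regions was -0.27.

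In the downstream domain the order depended on the scaling. The highest summit held 116 and 111 fragments in Gel and 102 and 76 in CuNZ@Gel, so the counts were lower with CuNZ@Gel. As heights they were 25.1 and 25.9 times background in Gel and 29.6 and 30.9 in CuNZ@Gel, so the heights were higher. On this scale 7.18% of the regions were higher in each CuNZ@Gel library than in each Gel library, and both domains were among them. The authors' fold enrichment, also relative to background, was 20.8 and 21.2 in Gel and 23.2 and 22.3 in CuNZ@Gel. For the upstream domain this fold was 11.8 and 8.97 in Gel and 20.9 and 21.3 in CuNZ@Gel. The lists were called separately, so such folds are set side by side and do not by themselves measure a change. The background at the upstream summit was 1.30 times the library background in Gel replicate 2 and 1.14 times in CuNZ@Gel replicate 2. It was within 1% of the library background in both replicates 1.

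**Figure D4:**
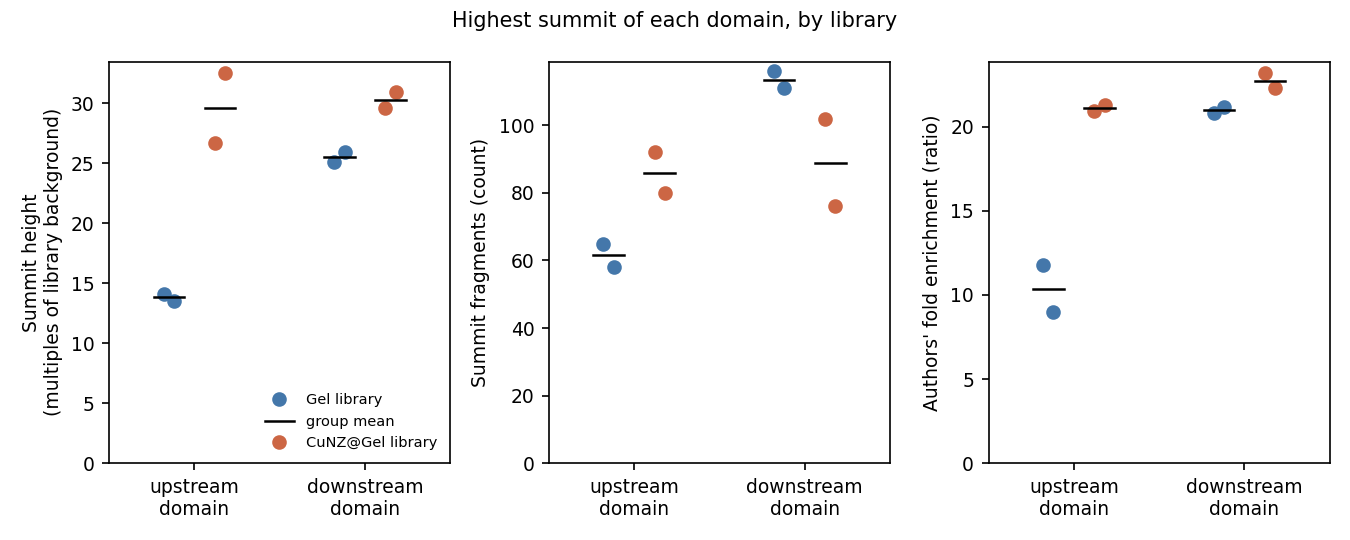
Highest summit of each domain in the 4 libraries, as height in multiples of library background, as fragments and as the authors' fold enrichment. Points are libraries and bars are group means, and each axis starts at 0. In the upstream domain both CuNZ@Gel points lie above both Gel points on every scale, while in the downstream domain they lie above them as heights and fold and below them as fragments.

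Ratios of heights within a library need no scaling between libraries. By these, and by ratios of covered width, the 2 domains were more alike with CuNZ@Gel than with Gel. Covered widths may still depend on depth, which was not tested. The downstream summit was 1.78 and 1.91 times as high as the upstream summit in the Gel replicates, and 1.11 and 0.95 times as high in the CuNZ@Gel replicates. The covered width of the downstream domain was 1.61 and 1.62 times that of the upstream domain in Gel, and 0.959 and 1.07 times in CuNZ@Gel. Among the 21909 shared regions, the upstream summit stood at percentiles 65.9 and 64.3 by height with Gel and 96.6 and 98.4 with CuNZ@Gel. The downstream summit stood at 88.8 and 89.8 in Gel and at 97.7 and 98.0 in CuNZ@Gel. The second region to the left of the locus, from 51327499, had higher summit heights with CuNZ@Gel. These were 17.1 and 16.3 against 13.0 and 10.0 times background. Its summit fragments overlapped between the groups, at 59 and 40 with CuNZ@Gel against 60 and 43 with Gel. For the nearest region on the left, from 51331850, the heights overlapped too, at 6.67 and 7.32 against 5.84 and 7.94. The region on the right, from 51400962, had lower ones, at 22.3 and 24.0 against 29.4 and 29.0.

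Each domain held 1 main peak per library, with smaller peaks beside it in some libraries and none beside the downstream peak of Gel replicate 1. The main upstream peak was 1704 and 1759 bp wide with Gel in replicates 1 and 2, with −log10 p of 50.9 and 38.5. With CuNZ@Gel it was 4058 and 3293 bp wide, with −log10 p of 95.6 and 85.7. The main downstream peak was 3541 and 3276 bp wide in Gel, with −log10 p of 117 and 113, and 3942 and 3648 bp in CuNZ@Gel, with −log10 p of 110.1 and 84.2. A −log10 p also reflects depth, so the values printed here only describe peaks within their own lists. They also entered the solution for summit fragments. All 4 main peaks of the CuNZ@Gel libraries were wider than at least 99.4% of the peaks of their list. In Gel the main downstream peaks were wider than 98.9% and 98.5% of their lists, and the main upstream peaks wider than 90.7% and 91.5%.

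The smaller peaks all had a lower fold than the nearest main peak of their library, but ranged widely within their lists, from above 4.97% of the peaks by fold to above 75.6%. Left of the main upstream peak, Gel replicate 1 had a peak of 501 bp with its summit at 51356383, a fold of 3.57 and a −log10 p of 8.46. CuNZ@Gel replicate 1 had one of 526 bp with its summit at 51356483, a fold of 6.07 and a −log10 p of 14.97. CuNZ@Gel replicate 2 had 2 peaks there. Their widths were 170 and 206 bp, their folds 3.16 and 3.94, their −log10 p 4.63 and 6.53, and their summits lay at 51355980 and 51356484. Gel replicate 2 had no separate peak at this place, since its main peak began at 51356377 and ran across it.

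Right of the main upstream peak, Gel replicate 2 had a peak of 467 bp with its summit at 51358727, a fold of 3.22 and a −log10 p of 5.55. CuNZ@Gel replicate 2 had one of 295 bp, further along at 51360919, with a fold of 3.47 and a −log10 p of 4.97. The 2 peaks thus lay over 2 kb apart, each at the right end of its own library's domain. The other library of each group had no separate peak on that side.

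On the left side of the downstream domain only the CuNZ@Gel libraries had separate peaks. Those of CuNZ@Gel replicate 1 were the 331 bp peak of the small region, with its summit at 51366104, a fold of 5.46 and a −log10 p of 14.4, and one of 455 bp, with its summit at 51366808, a fold of 7.28 and a −log10 p of 21.8. CuNZ@Gel replicate 2 had one of 216 bp, with its summit at 51366757, a fold of 5.79 and a −log10 p of 11.6. In the Gel libraries the main peak covered the latter positions without a break. On the right side, Gel replicate 2 had a peak of 335 bp with its summit at 51370553, a fold of 3.03 and a −log10 p of 4.95. CuNZ@Gel replicate 2 had one of 365 bp with its summit at 51371261, a fold of 4.92 and a −log10 p of 8.92.

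A short gap without a peak call lay just left of both main peaks in the CuNZ@Gel libraries. In the downstream domain it ran from 51366877 to 51367086 in CuNZ@Gel replicate 1 and from 51366877 to 51367067 in CuNZ@Gel replicate 2, 210.0 and 191 bp long. Both Gel libraries had continuous calls there, which accounts for 191 of the 225 bp covered in Gel only. In the upstream domain a gap of 207 and 256 bp lay at the matching place in the CuNZ@Gel replicates, and one of 184 bp in Gel replicate 1. Gel replicate 2 had none.

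The downstream summit stood at another position in each group. It lay at 51367239 and 51367249 in the Gel replicates, and at 51367553 and 51367550 in the CuNZ@Gel replicates. Replicates were 10 and 3 bp apart, and every pair across groups was 301 to 314 bp apart, with the CuNZ@Gel summits to the right. Summits of the groups did not overlap in position in 37.1% of the 21909 regions. Regions with summits over 300 bp apart in every pair across groups, and at most 10 bp apart within each group, made up 0.119% of them, or 26 regions. Those limits were set from this domain's own values, so the share is a description. The upstream summit showed no such separation. It lay at 51357072 in Gel replicate 1 and at 51357068 and 51357070 in CuNZ@Gel, while in Gel replicate 2 it lay at 51356906, 166 bp from that of Gel replicate 1.

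The spacing between the 2 domains was more even with CuNZ@Gel than with Gel. The main peaks began 10314 and 10263 bp apart in the CuNZ@Gel replicates, their summits were 10485 and 10480 bp apart, and their ends were 10198 and 10618 bp apart. In Gel replicates 1 and 2 the starts were 9699 and 10082 bp apart, the summits 10167 and 10343 bp, and the ends 11536 and 11599 bp. The spacing of ends thus exceeded that of starts by over 1.5 kb in both Gel libraries, since the upstream domain was the shorter there. Whether reads that match both genes take part in this spacing was not tested.

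The authors' group lists, which hold the intervals shared by the 2 libraries of a group, gave the same order. The Gel list had 4 intervals covering 4902 bp of the window, and the CuNZ@Gel list had 7 covering 7641 bp, although over all chromosomes the CuNZ@Gel list was the shorter, with 28072 intervals against 43947. In the window these totals equal the bases covered in both libraries of each group. The group lists thus restate the library lists and are not a separate source.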

How the data were processed

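H3ac peak lists of 4 RAW 264.7 libraries were used, 2 per group as labelled. The tools named in the submitters' processing notes are MACS2 2.2.8, SAMtools 1.17, deepTools 3.5.6 and fastp, with build GRCm39. Which aligner and peak calling options were used is not given in the sources used. The authors deposited, for each peak, a score, a fold enrichment ratio over background and a −log10 p. Read totals are not in these lists, so depth was read from the commonest background of each list. Summit fragments and background were solved from fold and −log10 p for 100% of the peaks (Python 3.11.15, scipy 1.17.1). The fragments were returned in 100% of 5000 simulated peaks per library. Those peaks were simulated with the same formulas, so this checks only the solving step, not the numbers at real summits. Peaks overlapping by at least 1 bp were merged across lists, on the 19 autosomes, X and Y. Positions are 1-based. Only Lilr4b and Lilrb4a were named, as the locus was given, and every peak of the window was described. The members, the planned gene and marker lists and the locus were chosen with earlier results of these data known. The planned lists of related receptors, ligands, signalling partners and cell markers were not used for want of an annotation of this build. No test was run. Alternatives were stricter thresholds, equal list length, a common p limit, other windows, merging and scaling, and leaving out each library.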

Additional observations from a re-analysis of the deposited data

How the results depend on the processing

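Covered width of the window, of each domain and the upstream summit height stayed higher with CuNZ@Gel in every setting run. Of 79 recomputed values, 62 kept their direction and moved by less than the replicate spread, or by less than 1.5 times for peak number and within the 95% binomial interval for shares and ranks. Some of these could not move. Widening the window by 10 kb or narrowing it by 5 kb on each side added and removed no peak. Summit heights cannot change with the threshold, list length or p limit while the peak stays in its list. The count is therefore no measure of robustness. As unscaled summit fragments, the log2 ratio of CuNZ@Gel to Gel turned from 0.28 to -0.32 for the highest summit of the window and from 0.24 to -0.35 for the downstream summit, because the CuNZ@Gel libraries had the lower background by which heights are divided. For the upstream summit it was 0.48 in place of 1.10. Scaled by the median height of the list, the ratios were 1.36 upstream and 0.51 downstream, and by the authors' fold the downstream ratio was 0.11. The downstream gain in width was 904.5 bp at the stricter threshold and with equal list length, and 902.5 bp when gaps of up to 500 bp were bridged, in place of 737 bp. Without any 1 library, the upstream gain ranged from 1454 to 2368 bp and the downstream gain from 288 to 821 bp. Both low ends came without CuNZ@Gel replicate 1. The last peaks of CuNZ@Gel replicate 2 in the domains, 295 and 365 bp wide, were then no longer joined to them. The difference in peak number ranged from 1.5 to 3.5. The share of regions wider with CuNZ@Gel ranged from 3.77% to 6.53%, where a single library stands for a group, and was 1.01% with gaps bridged. Groups of 2 libraries and the lack of read totals limit all of these values. No paired analysis was possible because no result comes from a test, and the labels do not state that same-numbered libraries pair.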
